A study of Mus musculus with 61 samples.

Results

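Potassium channel genes were taken as the genes with a symbol that starts with Kcn, read from probe sets annotated to exactly 1 gene, without Kcnj13 and the antisense transcript Kcnq1ot1. The choice gave 82 genes with 160 probe sets, of 18193 genes with 34945 such probe sets on the array. Each gene is given by its probe set with the highest mean signal, and Kcnq5 and Kcnj9 by all of their probe sets. RNA of 8 wk old wild-type male mice of the inbred strains C57BL/6J, 129S6/SvEvTac, A/J, C3H/HeJ, DBA/2J and FVB/NJ was hybridised to 61 one-colour Affymetrix arrays. In each strain the pituitary gland, the bed nucleus of the stria terminalis (bnst, a ventral forebrain nucleus), the hippocampus, the hypothalamus and the periaqueductal gray (pag, in the midbrain) were dissected. Of the 30 groups of strain and region, 29 are given by 2 arrays and the C3H/HeJ bnst by 3, and the arrays of a group came from separate animals. The tissue of 5 mice was pooled for an array of the pituitary gland, of 2 or 3 for the bnst, of 1 or 2 for the hypothalamus and the pag, and of 1 for the hippocampus. By the paper's methods the hippocampus was frozen at once on dry ice, and the smaller structures were kept in RNA Later. Preservation and region therefore cannot be told apart where the hippocampus is compared with the others. The 129S6/SvEvTac mice came from another supplier than the other 5 strains, so supplier and strain cannot be told apart there.

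Potassium channels let potassium ions leave the cell, which sets the resting potential and ends the action potential. Voltage-gated channels (Kv) are built of 4 pore subunits, some of which (the silent Kv subunits) carry no current alone and join pores of another family, and auxiliary subunits change their gating and their place on the membrane. Inward rectifiers and two-pore channels hold the cell near rest, G protein-gated inward rectifiers (GIRK) slow firing when transmitter receptors are active, and other channels open with calcium or sodium inside the cell.

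The upstream bases are shown for 4 of the genes that are described below. No difference below was tested against these bases. Kcnj9 and Kcnq5, both on chromosome 1, differ between strains by some of their probe sets. Kcna5 and Kcna6 lie close to each other and to Kcna1 on chromosome 6, and had opposite differences in the pituitary gland. The sequences are the bases before the first transcription start that RefSeq lists for each gene (build GRCm38.p6, minus strand), 250 bases each, with any match to the motifs named below in capitals.
Kcnj9 (chr1:172329323-172329572): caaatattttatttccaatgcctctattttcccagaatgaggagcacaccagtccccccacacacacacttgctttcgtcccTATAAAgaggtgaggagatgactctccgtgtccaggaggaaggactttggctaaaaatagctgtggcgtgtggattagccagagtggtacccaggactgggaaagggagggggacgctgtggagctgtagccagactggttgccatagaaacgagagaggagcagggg
Kcnq5 (chr1:21962651-21962900): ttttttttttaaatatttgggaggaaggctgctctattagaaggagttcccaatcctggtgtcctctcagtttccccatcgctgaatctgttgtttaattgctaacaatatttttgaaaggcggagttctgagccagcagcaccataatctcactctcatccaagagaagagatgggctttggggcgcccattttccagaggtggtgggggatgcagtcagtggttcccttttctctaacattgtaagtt
Kcna5 (chr6:126535556-126535805): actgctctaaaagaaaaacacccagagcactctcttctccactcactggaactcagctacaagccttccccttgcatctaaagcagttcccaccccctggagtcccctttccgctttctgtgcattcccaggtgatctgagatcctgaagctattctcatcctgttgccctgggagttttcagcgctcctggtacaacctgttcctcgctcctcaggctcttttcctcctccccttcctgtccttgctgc
Kcna6 (chr6:126740675-126740924): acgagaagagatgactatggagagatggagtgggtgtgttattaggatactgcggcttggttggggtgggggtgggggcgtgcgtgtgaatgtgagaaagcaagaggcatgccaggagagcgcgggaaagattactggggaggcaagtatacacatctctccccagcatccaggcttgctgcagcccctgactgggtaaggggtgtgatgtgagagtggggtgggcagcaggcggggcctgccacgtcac

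The motifs searched on both strands, none of which overlap in these windows, were the GC box GGGCGG, the TATA box TATAAA and the cAMP response element TGACGTCA. The GC box was found upstream of 32 of the 62 potassium channel genes that RefSeq lists under these symbols (51.6%) and of 32.9% of all 27025 genes. The TATA box was found upstream of 1 of the 62 (1.61%), which is Kcnj9, and of 13.0% of all genes. The cAMP response element was found in none of the 62 and in 1.62% of all genes. These matches describe the letters in a window of 250 bases and were not tested for use.

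Most potassium channel genes differed between regions, and fewer differed between strains. By limma's F test 70 of the 82 (85.4%) differed between regions at an adjusted p under 0.05, where 71.7% of the 44065 probe sets tested did, and 26 (31.7%) differed between strains, where 39.2% of all did. The strain differences themselves changed between regions for 16 genes by limma's F test (19.5%, against 11.3% of all probe sets). An interaction F test on unlogged signals of 60 arrays gave 18 genes at an unadjusted p under 0.01 (22.0%, against 17.1% of all probe sets). By a linear regression of unlogged signals of the kind the study used, but without its filter on genes scored as Present, so that the shares here need not be those of the study, 66 of the 82 were region-specific (80.5%, against 60.6% of all 45037 probe sets) and 2 were strain-specific (2.44%, against 8.87%), which were Kcnj6 and Kcnu1. A signal is a background-corrected and scaled intensity, which can fall below 0, and log2 differences were taken after signals under 12.8, the 20th percentile of all signals, had been raised to that floor. A difference that involves signals near the floor is therefore too small.

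**Figure D1:**
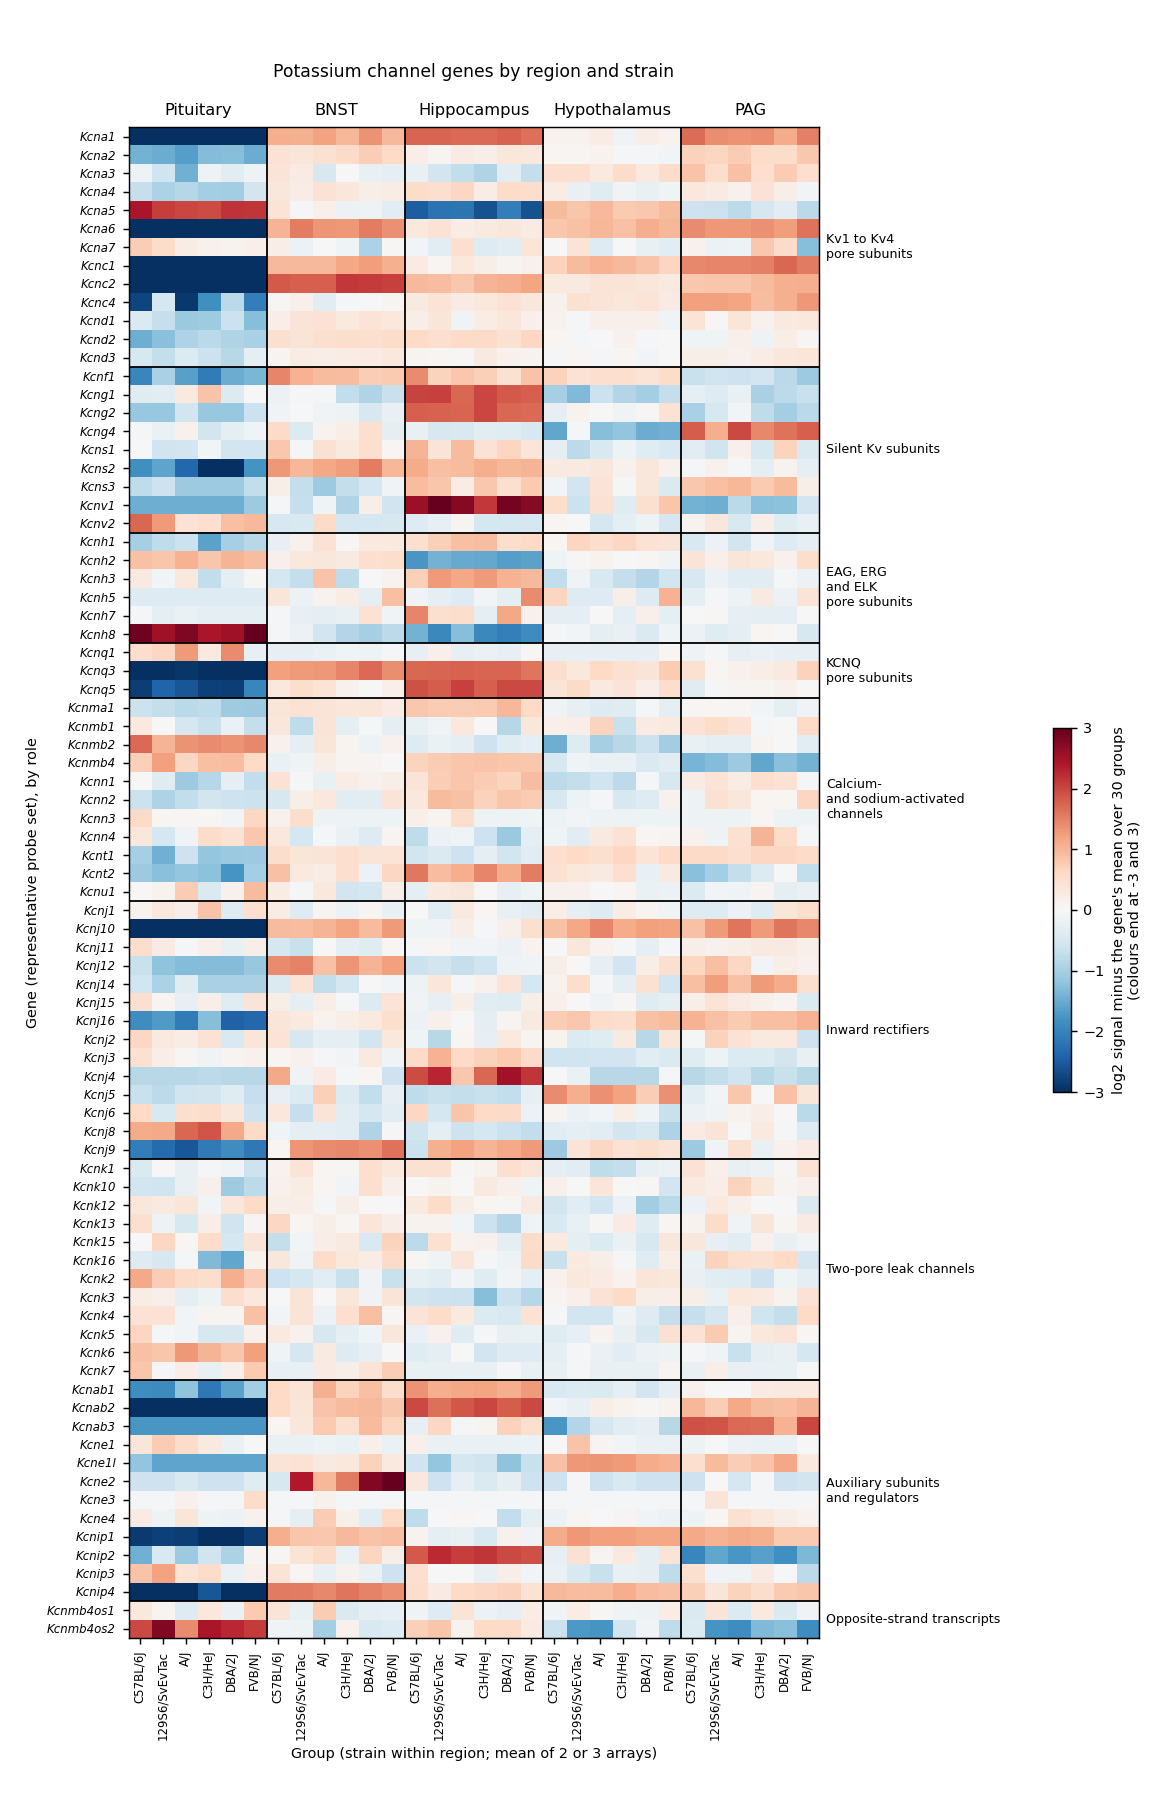
Heat map of 82 potassium channel genes (rows, grouped by role) in 30 groups of strain and region (columns), where the colour is the mean log2 signal of a group minus the mean of that gene over the 30 groups. The columns of a region look alike across the 6 strains for most genes, and the pituitary columns hold the darkest blue cells, such as Kcna1, Kcna6, Kcnc2, Kcnq3 and Kcnj10.

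The pituitary gland was the region in which the most potassium channel genes were lower. Against the mean of the other 4 regions, 45 of the 82 genes were lower (54.9%, where 25.4% of all probe sets were lower), 21 were higher (25.6%, against 40.6%) and 16 did not pass. The median log2 difference of the 82 was -0.54, beside 0.10 over all probe sets, and 32 genes were lower by more than 2-fold. Of the 13 pore subunits of the Kv1 to Kv4 families 11 were lower and 2 higher, and of the 12 auxiliary subunits 8 and 2. Of the 9 silent subunits 6 were lower and 1 higher, of the 3 KCNQ subunits 2 and 1, and of the 14 inward rectifiers 7 and 4. Among the higher rectifiers, Kcnj11 and Kcnj3 had other probe sets called lower and none called higher. Kcnj1, also higher, had a mean signal of 15.1, near the floor described above. Among the lower ones, Kcnj9 had 2 of its 3 other probe sets called lower and 1 called higher. Of the 11 calcium- and sodium-activated channels 5 were lower and 4 higher, and of the 6 EAG, ERG and ELK channels 3 and 2. Of the 12 two-pore channels 3 were lower and 4 higher. The sum of 5 neuronal markers was 3630 to 5260 in pituitary arrays and 10550 to 16044 in the arrays of the other regions, and that of 6 markers of pituitary endocrine cells was at least 39220 in pituitary arrays. The part of cell makeup in these differences was not tested, and in bulk tissue fewer cells of a type and less RNA per cell cannot be told apart.

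**Figure D2:**
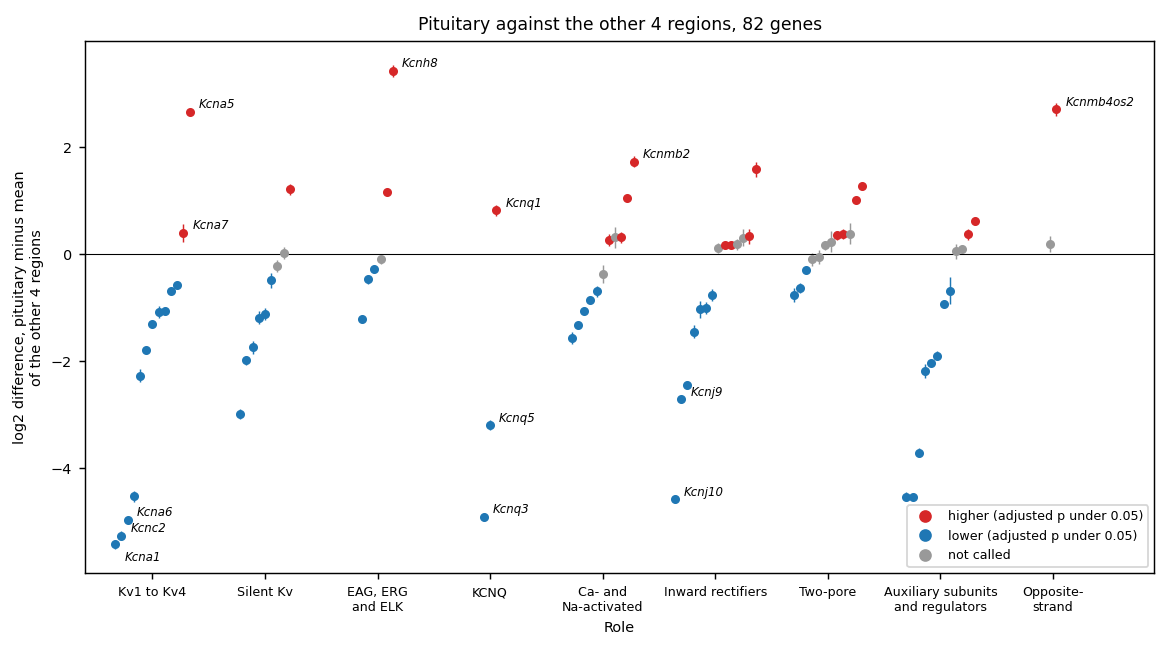
Log2 difference of the pituitary gland minus the mean of the other 4 regions for each of the 82 genes (vertical axis), by role (horizontal axis), where bars are the standard error of limma and colours give the call. Kcna1, at -5.42, is the lowest point and Kcnh8, at 3.42, the highest.

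Kcna1, the Kv1.1 subunit of axons, had signals of 6.89 at the lowest, 15.6 at the median and 37.6 at the highest of 12 pituitary arrays, against 316, 883 and 1296 over the 49 arrays of the other regions. No pituitary array came near any brain array. The log2 difference was -5.42 (standard error, SE, 0.09, limma adjusted p = 1.89e-34). Kcna6, the Kv1.6 subunit, lay between -11.2 and 12.2 in the pituitary gland, below the floor on every array, and between 228 and 644 elsewhere, so that it was at least 31.3-fold lower (limma adjusted p = 5.47e-44). Kcna5, the Kv1.5 subunit known from heart and smooth muscle, went the other way. Kcna5 had 432 at the lowest, 465 at the median and 631 at the highest of the pituitary arrays, against 15.5, 89.8 and 238 elsewhere, a log2 difference of 2.66 (SE 0.06, limma adjusted p = 1.47e-30), with no overlap between the groups. Kcna5 is given by a single probe set. A second probe set of Kcna6 was lower in the pituitary gland by a log2 difference of -1.67 and a second one of Kcna1 by -3.45.

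Among the other Kv subunits, the 3 measured genes of the Kv3 subunits, known from fast-spiking neurons, were lower in the pituitary gland. Kcnc2 (Kv3.2) ranged from 1.91 to 45.8 with a median of 14.2 in pituitary arrays, against 354 to 1776 with a median of 648 elsewhere, a log2 difference of -5.26 (SE 0.08, limma adjusted p = 1.22e-35). Kcnc1 (Kv3.1) averaged 22.0 ± 10.4 (SD, n = 12) in the pituitary gland and 514 elsewhere, and its 3 other probe sets, at 10.3 to 90.2 over the pituitary arrays, were called lower as well. Kcnc4 (Kv3.4) was further above the floor, at 16.0 to 144 against 150.4 to 536 (log2 difference -2.27, limma adjusted p = 6.55e-19). The Kv4 subunits of A-type currents differed less, with log2 differences of -1.32 for Kcnd2, -1.08 for Kcnd1 and -0.70 for Kcnd3, each lower in all 6 strains. The partner proteins of Kv4 were further apart, as Kcnip4 was lower by 4.53 and Kcnip1 by 3.71 on the log2 scale, while Kcnip3, which also acts in the nucleus, was higher by 0.62 (limma adjusted p = 3.21e-09). Kcnab2, a beta subunit of Kv1 channels, had 36.4 ± 9.75 in the pituitary gland and 912 elsewhere.

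Both M-current subunits measured here were lower in the pituitary gland. Kcnq3 lay between -23.4 and 50.8 with a median of -1.49 in pituitary arrays, and between 227 and 1029 with a median of 452 elsewhere (log2 difference -4.91, SE 0.08, limma adjusted p = 2.63e-34). Kcnq5 lay between 4.44 and 38.2 against 62.3 to 452 (log2 difference -3.20, limma adjusted p = 1.62e-27). Kcnq1, the cardiac and epithelial member, was higher by 0.82 on the log2 scale (limma adjusted p = 2.7e-09), at signals of 9.78 to 49.7 against -12.5 to 21.7. The groups overlapped, and most of these signals lie near the floor. Among the inward rectifiers, Kcnj10, the Kir4.1 channel of astrocytes, had 23.1 to 50.4 in the pituitary gland and 330.4 to 1454 elsewhere, a log2 difference of -4.58 (limma adjusted p = 9.19e-36), and its channel partner Kcnj16 differed by -2.44. Summed signals of 5 astrocyte markers were 321 to 630 in the pituitary gland and at least 4628 elsewhere, and their part in the result was not tested.

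The genes with the highest pituitary differences came from several families. Kcnh8, a channel of the ELK family, had 376 at the lowest, 468 at the median and 674 at the highest of the pituitary arrays, against 1.01, 53.0 and 89.5 in the other regions. Every pituitary array was above every brain array, by a log2 difference of 3.42 (SE 0.11, limma adjusted p = 4.79e-25). Kcnh2, the ERG1 channel that repolarises the heart, had 651 to 819 against 108 to 566 (log2 difference 1.16, limma adjusted p = 9.28e-29). Kcnmb2, a beta subunit that inactivates the BK channel, had 165 to 295 against 30.2 to 131, and the same log2 difference of 1.72 came from both of its probe sets. Kcnmb4, the neuronal BK beta subunit, was higher by 1.04, while Kcnma1, the pore of the BK channel, was lower, at 185 to 283 against 296 to 836 (log2 difference -1.06, limma adjusted p = 4.53e-17). Of the other 4 probe sets of Kcnma1 1 was lower and 1 higher in the pituitary gland. Kcnmb4os2, a transcript from the strand opposite to Kcnmb4, had 117 to 338 against -3.11 to 82.4 (log2 difference 2.70, limma adjusted p = 5.28e-21). The two-pore channel Kcnk2 (TREK-1) had 645 to 1039 in the pituitary gland and 190 to 633 elsewhere. Kcnk6 (TWIK-2), also a two-pore channel, was higher by 1.27, and Kcnj8, the Kir6.1 subunit of vascular ATP-sensitive channels, by 1.59 on the log2 scale.

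One pituitary array, replicate 2 of C3H/HeJ, had a sum of 4286 over 4 oligodendrocyte markers, against 88.0 to 281 on the other 11. Without that array 46 genes were lower and 18 higher, and each gene named above kept its pituitary call.

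**Figure D3:**
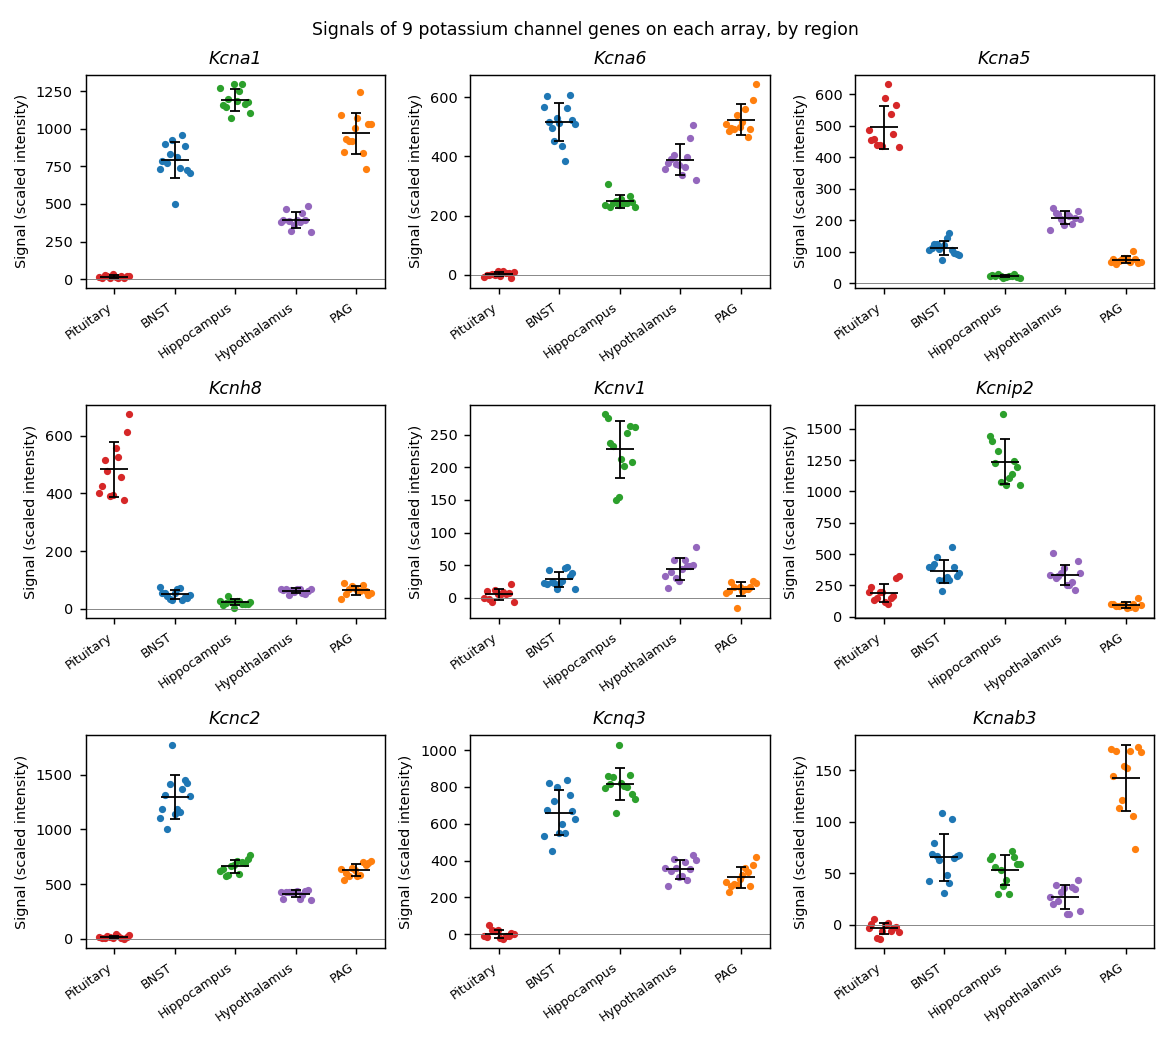
Signals (scaled intensity) of 9 potassium channel genes on each of 61 arrays by region, where points are arrays and black marks the mean ± SD over the 12 or 13 arrays of a region. Kcna5 and Kcnh8 are highest in the pituitary gland, Kcnv1 and Kcnip2 in the hippocampus, Kcnc2 in the bnst and Kcnab3 in the pag.

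In the hippocampus the silent Kv subunits stood out. Of the 82 genes 37 were higher there than in the mean of the other 4 regions (45.1%, where 19.1% of all probe sets were higher) and 19 were lower (23.2%, against 29.3%), with a median log2 difference of 0.12 beside -0.07 over all probe sets. Of the 9 silent subunits 7 were higher and 2 lower, with a median of 1.03. Kcnv1, a silent subunit that joins Kv2 pores, had 150.2 at the lowest, 235 at the median and 281 at the highest of 12 hippocampal arrays, against -16.1, 21.4 and 78.5 elsewhere. The groups did not overlap, and the log2 difference was 3.34 (SE 0.12, limma adjusted p = 8.14e-24). Kcng1, another silent subunit, had 130.3 to 226 against 2.32 to 83.4 (log2 difference 2.38, limma adjusted p = 2.05e-19), and Kcng2 averaged 97.9 ± 15.2 in the hippocampus and at most 29.4 in each of the other regions. Set against the brain regions alone, 31 genes were higher and 20 lower in the hippocampus than in the mean of the bnst, the hypothalamus and the pag, where 17.4% and 23.3% of all probe sets were.

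Beside the silent subunits, Kcnip2, a calcium-binding partner of Kv4 channels, had 1047 at the lowest, 1210 at the median and 1613 at the highest of the hippocampal arrays, against 67.7, 252 and 557 elsewhere (log2 difference 2.54, SE 0.06, limma adjusted p = 9.23e-28). Kcnq5, an M-current subunit, had 263 to 452 against 4.44 to 157, a log2 difference of 2.40 (limma adjusted p = 5.9e-23). Both lay above every other array. In the other direction, Kcna5 had 15.5 to 29.6 in the hippocampus and 60.8 to 631 elsewhere (log2 difference -2.96, limma adjusted p = 7.27e-31), and Kcnh2 had 108 to 151 against 335 to 819 (log2 difference -1.97, limma adjusted p = 2e-34). Kcnh8 was lower by 2.19 on the log2 scale and Kcne1l, a small auxiliary subunit, by 0.99. Kcna5, Kcnh2 and Kcnh8 thus had their lowest mean in the hippocampus and their highest in the pituitary gland. Against the brain regions alone these differences were -2.45 for Kcna5, -1.80 for Kcnh2 and -1.42 for Kcnh8, all called. The sum of 4 markers of hippocampal principal neurons was 2967 to 4789 in hippocampal arrays and at most 642 elsewhere, and their part in these differences was not tested.

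In the bnst 37 of the 82 genes were higher (45.1%, against 16.0% of all probe sets) and 13 were lower (15.9%, against 22.6%). Kcnc2 was the gene furthest above the mean of the other regions, with 1000 at the lowest, 1306 at the median and 1776 at the highest of 13 arrays, against 1.91, 493 and 764 elsewhere. No array of another region reached the lowest bnst array, and the log2 difference was 2.44 (SE 0.08, limma adjusted p = 6.97e-24). Kcnip4, a partner of Kv4 channels, had 527 to 868 in the bnst and 1.78 to 538 elsewhere (log2 difference 1.88), Kcnq3 differed by 1.74 and Kcna6 by 1.69. Part of each difference came from the low pituitary gland. Against the other 3 brain regions alone, 23 genes were higher and 15 lower in the bnst (background 8.38% and 10.4%), Kcnc2 by 1.20, Kcnip4 by 0.79, Kcnq3 by 0.55 and Kcna6 by 0.48, all of them still called. Among the lower genes, Kcnk2 (TREK-1) had 190 to 426 in the bnst and 241 to 1039 elsewhere (log2 difference -0.61), and the silent subunits Kcns3 and Kcng1 differed by -0.61 and -0.55. Kcnk2 was highest in the pituitary gland and Kcng1 in the hippocampus, which are part of the means they were set against. Kcng1 averaged 34.3 in the bnst, 23.4 in the hypothalamus and 171 in the hippocampus. Kcnh8 was lower by 0.72 on the log2 scale against all 4 regions, but its difference from the brain regions alone was 0.14 (limma adjusted p = 0.481). The 4 thalamic markers summed to 2153 to 4940 in the bnst and at most 1340 elsewhere. The 4 hypothalamic markers summed to 4685 to 10834 in the bnst, 10963 to 18447 in the hypothalamus and at most 2331 elsewhere. The 3 striatal markers measured summed to 321 to 1458 in the bnst and 266 to 1054 elsewhere. Of these, Drd1 and Ppp1r1b were called higher in the bnst, by 1.71 and 2.15 on the log2 scale. Rgs9 was not called there, and it averaged 744 in the pituitary gland. The part of these markers in the differences was not tested.

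Kcne2, a small auxiliary subunit known from the choroid plexus, differed widely among bnst arrays of the same strain, and so did the choroid plexus markers. It had 246, 61.5 and 0.78 in the 3 arrays of C3H/HeJ, and 14.3 and 106 in those of A/J. The summed signal of 5 choroid plexus markers fell into 2 ranges, 301 to 2953 on 4 arrays (both of C57BL/6J and 1 each of A/J and C3H/HeJ) and 6189 to 10033 on the other 9. Kcne2 had 0.78 to 15.5 on the 4 and 55.2 to 246 on the 9. These ranges are a description, since Kcne2 was chosen after its values were seen.

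In the hypothalamus 22 genes were higher and 22 lower (26.8% each, against 17.0% of all probe sets in each direction), and against the other brain regions alone 13 were higher and 31 lower (background 16.5% and 12.9%). Kcnj5, the GIRK4 subunit, had 28.6 at the lowest, 50.1 at the median and 71.8 at the highest of 12 hypothalamic arrays, against -2.68, 15.1 and 42.7 elsewhere (log2 difference 1.50, SE 0.12, limma adjusted p = 8.71e-13). Its groups overlapped at the edges. The second probe set of Kcnj5, of nearly the same mean signal, was not called, at 18.5 to 33.8 in the hypothalamus against 7.43 to 43.4 (log2 difference 0.20, limma adjusted p = 0.340). Kcnip1, a partner of Kv4 channels, had 384 to 489 against 15.3 to 427 (log2 difference 1.50), and Kcne1l had 68.2 to 118 against -2.51 to 95.4 (log2 difference 1.45). Against the brain regions alone Kcnj5 was higher by 1.39, Kcne1l by 1.04, Kcnip1 by 0.61 and the astrocyte channel Kcnj10 by 0.35. The lower genes included the silent subunits Kcng4, by 1.46, and Kcng1, by 1.16, the BK subunit Kcnmb2, by 1.12, and Kcnmb4os2, by 1.15, on the log2 scale. Kcnmb2 and Kcnmb4os2 averaged 226 and 217 in the pituitary gland, which is part of the mean they were set against. Kcng4 had 3.10 to 56.7 in the hypothalamus and 29.2 to 207 elsewhere. The sum of the 6 pituitary markers was 525 to 7765 over the hypothalamic arrays and at most 6293 in the other brain regions, and its part in these values was not tested.

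In the pag 35 genes were higher (42.7%, against 22.2% of all probe sets) and 15 lower (18.3%, against 21.2%), and the Kv1 to Kv4 pore subunits were the group most often higher, with 10 of 13. Against the other brain regions alone 7 of these 13 were higher and 1 lower. Their median log2 difference was then 0.13, beside 0.84 with the pituitary gland in the mean. Kcnab3, a Kv1 beta subunit, had 74.1 at the lowest, 154 at the median and 172 at the highest of 12 arrays, against -13.3, 36.8 and 109 elsewhere (log2 difference 2.13, SE 0.13, limma adjusted p = 3.81e-16). The silent subunit Kcng4 had 69.6 to 207 against 3.10 to 76.8 (log2 difference 2.03), Kcnc1 had 635 to 904 against 7.87 to 745 (log2 difference 1.91) and Kcna1 differed by 1.76. Against the other brain regions alone these were 1.69 for Kcnab3, 2.11 for Kcng4, 0.83 for Kcnc1 and 0.43 for Kcna1, all called, and 23 genes were higher and 23 lower (background 20.5% and 14.3%). Kcnmb4, the neuronal BK beta subunit, was lower in the pag without overlap, at 130.1 to 210 against 280 to 1030 (log2 difference -1.67, limma adjusted p = 2.29e-24). Kcnip2 was lower by 2.10, Kcnmb4os2 by 1.77 and Kcnv1 by 1.40 on the log2 scale. The 2 markers of midbrain serotonin neurons that were measured summed to 1427 to 2981 in the pag and to at most 31.4 elsewhere, and their part in these differences was not tested.

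Of 15 genes listed as partners of potassium channels or as related HCN channels, 13 were measured. In the pituitary gland 9 of the 13 were lower and 3 higher (25.4% and 40.6% of all probe sets were), in the hippocampus 6 and 5 (29.3% and 19.1%), in the bnst 1 and 8 (22.6% and 16.0%) and in the hypothalamus 2 and 7 (17.0% each), while in the pag 9 were higher (22.2%). Lgi1, a secreted protein bound to Kv1 complexes, was at 1008 in the hippocampus and 343 elsewhere (log2 difference 2.13), and at 34.4 in the pituitary gland and 581 elsewhere (log2 difference -4.02). The Kv4 partners Dpp6 and Dpp10 were both lower in the pituitary gland, by 2.67 on the log2 scale, in the same direction as the Kv4 subunits and Kcnip1, Kcnip2 and Kcnip4. Kcnip3, by contrast, was higher there. Abcc9, the sulfonylurea receptor that pairs with the Kir6.1 subunit, was higher in the pituitary gland by 1.08, as Kcnj8 was. Abcc8 was not called there (log2 difference -0.08, limma adjusted p = 0.293), although Kcnj11 was called higher. Lrrc26 and Lrrc52 were higher by 0.64 and 0.77, while the BK pore Kcnma1 was lower.

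Differences between strains were fewer and smaller than those between regions. In C57BL/6J, against the mean of the other 5 strains over the 5 regions, 5 of the 82 genes were higher and 9 lower (background 11.7% and 10.4%). In 129S6/SvEvTac 4 were higher and 6 lower (9.93% and 8.80%), in A/J 5 and 4 (7.74% and 7.36%), in C3H/HeJ 1 and 7 (5.23% and 5.28%), in DBA/2J 4 and 2 (6.00% and 7.50%) and in FVB/NJ 8 and 3 (5.68% and 5.32%). The median of the 82 genes lay within 0.05 of 0 on the log2 scale in every strain. By 1 probe set per gene, only Kcnj9 in C57BL/6J differed by more than 2-fold (a further probe set of Kcnq5, described below, did so too), and the next was Kcnh5, an EAG2 channel gene, in FVB/NJ, by 0.82 on the log2 scale. Kcnh5 had 53.2 and 36.6 in the FVB/NJ hippocampus against 4.17 to 19.4 in the other strains, and 3.64 and 2.43 against -7.52 to 5.04 in the pituitary gland, where all its signals lay below the floor. Within single regions the share of all probe sets called in 1 direction was 0.806% to 8.93%.

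Kcnj9 encodes GIRK3, a G protein-gated channel subunit, and 4 probe sets read it, named a to d here from the highest to the lowest mean signal. By probe set a, the 2 arrays of C57BL/6J had 283 and 252 in the bnst, 176 and 155 in the hippocampus, 110.3 and 129.7 in the hypothalamus, and 118 and 123 in the pag. In the same regions the other strains had 569 to 959, 472 to 694, 307 to 417 and 197 to 376. C57BL/6J lay below every other strain in each brain region, and in the pituitary gland, at 64.5 and 58.1 against 32.3 to 81.7, it did not. The log2 difference of C57BL/6J over the 5 regions was -1.16 (SE 0.08, limma adjusted p = 1.31e-14). Within a region it was -1.77 in the hippocampus, -1.58 in the hypothalamus, -1.38 in the bnst and -1.19 in the pag. In pairs of strains C57BL/6J differed from each of the other 5 by -1.04 to -1.25, and no other pair passed the test. DBA/2J, FVB/NJ and A/J were also called higher, by 0.31, 0.35 and 0.28, against a mean that includes C57BL/6J, and the call in A/J was lost without pituitary replicate 2 (adjusted p = 0.076). The call in DBA/2J was lost with linear signals (limma adjusted p = 0.188), and by the mean over the 4 probe sets those in FVB/NJ (log2 difference 0.09, adjusted p = 0.447) and A/J (-0.03, adjusted p = 0.838) were lost.

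The other probe sets of Kcnj9 did not give 1 answer. Probe set b was also lower in C57BL/6J, by a log2 difference of -0.38 (limma adjusted p = 0.0123), a call that was lost with a floor at the 10th percentile (-0.30, adjusted p = 0.164). It had 67.0 and 59.5 in the C57BL/6J hippocampus against 66.4 to 199 in that of the other strains, and it was higher in the C57BL/6J pituitary gland, at 26.5 and 25.2 against 2.47 to 20.2. Probe set c went the other way, with 230.1 and 203 in the C57BL/6J bnst against 101 to 214, and 140.5 and 154 in the hippocampus against 72.2 to 139. Its log2 difference was 0.28 (limma adjusted p = 0.0300), and this call was lost when any 1 of 7 C57BL/6J arrays was left out (adjusted p of 0.0515 to 0.0974), with that lower floor (0.0668) and with arrays scaled to 1 median (0.0995). Probe set d differed by 0.15 (limma adjusted p = 0.534). Between regions probe sets a, b and c ran together (r of 0.87 to 0.93 over 30 group means, which share arrays), with the bnst highest and the pituitary gland lowest. Probe set d did not, with signals of 25.9 to 75.8 in the pituitary gland and 5.39 to 44.3 in the bnst, and r of -0.48 with probe set a. Strain sequences under the probes were not examined. The SD of the next values is over the arrays of all strains, so it holds the strain difference of probe set a. The signals of Kcnj9 by region, read from probe set a, were 637 ± 200 in the bnst (SD, n = 13), 500.3 ± 166 in the hippocampus, 319 ± 98.1 in the hypothalamus, 254 ± 79.9 in the pag and 58.1 ± 11.8 in the pituitary gland (n = 12 each). Each neighbour in this order differed by limma's test, the closest being the hypothalamus and the pag (log2 difference 0.31, adjusted p = 0.0075).

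Kcnq5 encodes a subunit of the M-current, which opposes repetitive firing, and 3 probe sets read it, again named from a downwards by mean signal. Probe set c had 183 and 186 on the C57BL/6J arrays of the hippocampus, 69.4 and 87.2 in the hypothalamus, 31.5 and 59.4 in the bnst, 37.0 and 58.7 in the pag and 2.63 and -4.44 in the pituitary gland. Over the other 5 strains it lay between -37.3 and 20.6, and every C57BL/6J array of a brain region was above all of them. The log2 difference of C57BL/6J was 2.00 over the 5 regions (SE 0.06, limma adjusted p = 3.51e-24) and 3.85 in the hippocampus, both too small because of the floor. The probe sets with higher signals saw no such strain difference. Probe set a had 309 and 368 in the C57BL/6J hippocampus against 263 to 452 in the other strains, with a log2 difference over the regions of -0.13 (limma adjusted p = 0.375), and probe set b differed by 0.06 (limma adjusted p = 0.718). Across the 30 group means r was 0.93 between a and b, 0.21 between a and c and 0.23 between b and c. The hippocampus was highest and the pituitary gland lowest by probe set a, and by probe set c in C57BL/6J. By probe set a the hippocampus had 344 ± 52.8, the hypothalamus 119 ± 18.1, the bnst 109 ± 18.5, the pag 89.4 ± 11.6 and the pituitary gland 14.3 ± 8.55. The bnst differed neither from the hypothalamus (limma adjusted p = 0.481) nor from the pag (limma adjusted p = 0.0630).

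**Figure D4:**
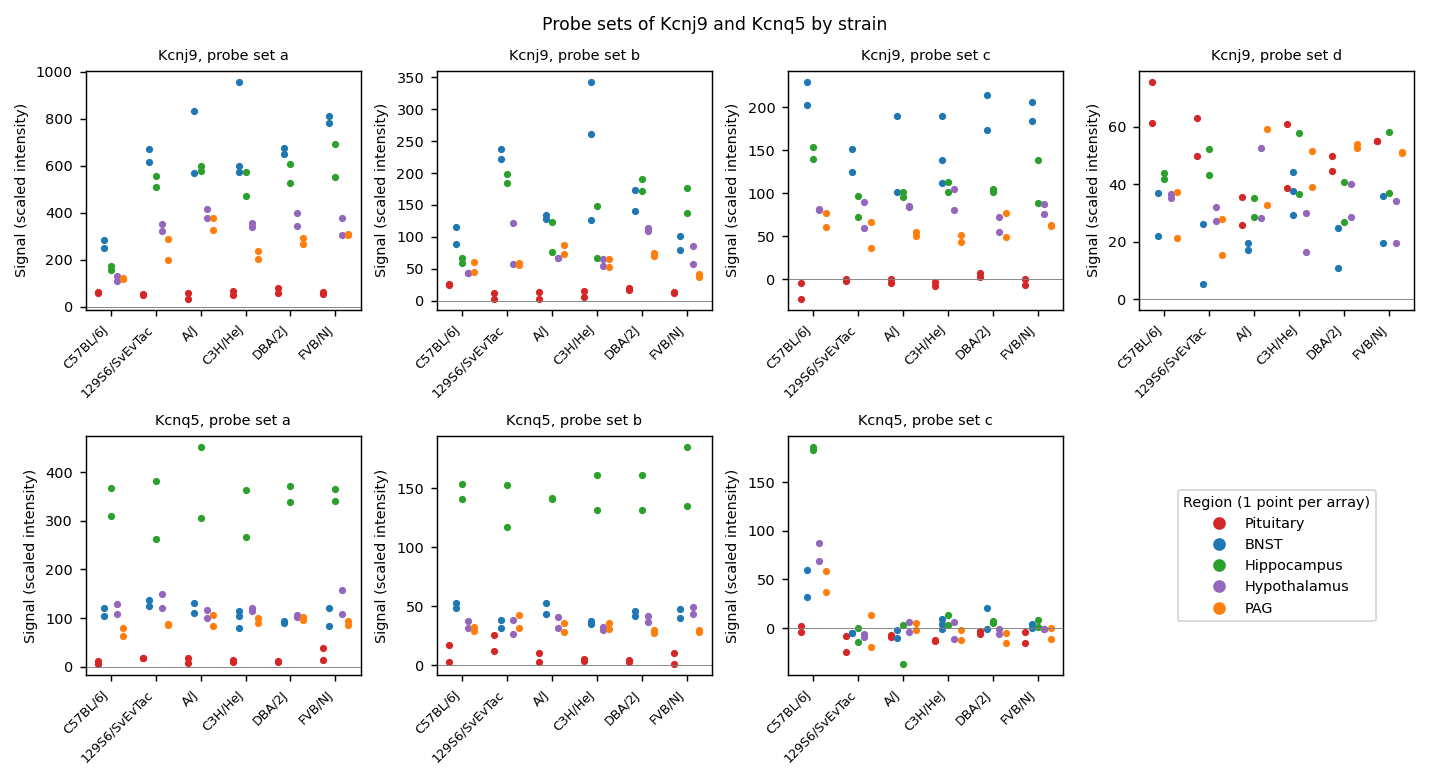
Signals (scaled intensity) of the 4 probe sets of Kcnj9 and the 3 of Kcnq5 on each array, by strain (horizontal axis, C57BL/6J first), with colours for the region. Probe set a of Kcnj9 is lower in C57BL/6J in the 4 brain regions while c is not, and c of Kcnq5 is above the other strains in C57BL/6J, up to 186 in the hippocampus.

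Kcnh1, the EAG1 channel, also had 2 probe sets that disagreed in C57BL/6J. The one with the higher mean signal was lower there, with 338 and 325 in the hippocampus against 336 to 463 and 200.1 and 201 in the bnst against 162 to 388 (log2 difference -0.27, limma adjusted p = 0.0106). The other was higher, with 134 and 124 in the hippocampus against 53.5 to 86.4 and 68.8 and 63.7 in the bnst against 23.9 to 54.5 (log2 difference 0.98, limma adjusted p = 7.28e-06). Both kept their direction in all 5 regions, and the first was no longer called without C57BL/6J pituitary replicate 2 (adjusted p = 0.0601). Among genes with more than 1 probe set, 34 strain calls were made in 18 genes, and another probe set of the gene was called the same way for 11 of them and the opposite way for 2. For regions, 155 calls were made in 42 genes, with another probe set called the same way for 124 and the opposite way for 10. Opposite region calls came from Kcnj9, Kcnma1, Kcna2, Kcna6, Kcnj11 and Kcnj3.

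The remaining strain differences described here were smaller than that of Kcnj9 and had 1 direction in all 5 regions. Kcnip3, a calcium-binding protein that acts on Kv4 channels and in the nucleus, was highest in C57BL/6J and lowest in FVB/NJ in the pag, with 228 and 207 in C57BL/6J and 76.4 and 107 in FVB/NJ, beside 130 to 188 in the other 4 strains. Over the regions it was higher in C57BL/6J by a log2 difference of 0.50 (SE 0.08, limma adjusted p = 1.21e-05) and lower in FVB/NJ by 0.51 (limma adjusted p = 1.24e-05). Kcnj6, the GIRK2 subunit, was lower in FVB/NJ, with 40.4 and 65.7 in the pituitary gland against 44.5 to 126, and 75.3 and 63.4 in the hippocampus against 47.8 to 157 (log2 difference over the regions -0.63, SE 0.11, limma adjusted p = 8.35e-05). It was higher in A/J, by 0.42. In both strains the ranges overlapped with those of the other strains. Kcnj6 was read by 5 probe sets, and the mean over them differed by -0.12 in FVB/NJ (limma adjusted p = 0.41) and by 0.05 in A/J (limma adjusted p = 0.751).

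In C57BL/6J, Kcna3, the Kv1.3 subunit, was higher by 0.33, while Kcnip2 was lower by 0.43 and the astrocyte channel Kcnj10 by 0.26 on the log2 scale. In 129S6/SvEvTac the Kv3.4 gene Kcnc4 was higher by 0.42, Kcnip2 by 0.26 and Kcnk1, the TWIK-1 channel, by 0.16, and the Kv1 beta subunits Kcnab2 and Kcnab1 were lower by 0.32 and 0.20 and Kcnd2 by 0.13. In C3H/HeJ, Kcnv1 was lower by 0.44 and Kcnk2 by 0.25. The ERG3 channel Kcnh7 was also called lower in C3H/HeJ, at -4.18 to 14.6 against -11.8 to 46.6 in the other strains, but only 27 of the 61 arrays were above the floor, and the call was lost with a floor at the 10th percentile (limma adjusted p = 0.137) and with linear signals (0.107). In DBA/2J, Kcnk2 was higher by 0.26 and Kcnj15, an inward rectifier, lower by 0.34. In FVB/NJ, Kcnn2, the SK2 channel, was higher by 0.31 (limma adjusted p = 6.46e-06) and Kcnj10 by 0.24. In A/J, Kcnmb4os2 was lower by 0.75 (limma adjusted p = 5.68e-05). Some of these calls were lost under another processing. Kcnv1 in C3H/HeJ was not called with a floor at the 10th percentile (limma adjusted p = 0.101) or by the mean over its 3 probe sets (log2 difference -0.15, adjusted p = 0.404), nor was Kcnip2 in 129S6/SvEvTac by the mean over its probe sets (0.17, adjusted p = 0.0685). With arrays scaled to 1 median, Kcna3 in C57BL/6J (0.22, limma adjusted p = 0.0883) and Kcnk1 (0.12, adjusted p = 0.238), Kcnc4 (0.38, adjusted p = 0.0843) and Kcnd2 (-0.16, adjusted p = 0.0903) in 129S6/SvEvTac were not called, nor were Kcnj15 in DBA/2J and Kcnj10 in FVB/NJ. Other calls rested on single arrays. Kcnc4, Kcnip2 and Kcnd2 in 129S6/SvEvTac were not called without hypothalamus replicate 2 of that strain (adjusted p of 0.0565, 0.0520 and 0.114), nor Kcnc4 without its hippocampus replicate 2 (0.0714), nor Kcnab1 without its pituitary replicate 2 (0.0629). Kcnk2 in C3H/HeJ was not called without pag replicate 2 (adjusted p = 0.0509), nor Kcnj10 in C57BL/6J without pituitary replicate 1 (0.0502). Kcnj15 in DBA/2J was lost without any 1 of 7 arrays (adjusted p up to 0.129), and Kcnj10 in FVB/NJ without any 1 of 6 (up to 0.128).

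For 16 genes the strain differences themselves differed between regions, which the test cannot tell from the floor where signals of a region lie below it. For Kcnk1 (adjusted p = 0.000339 for the interaction, limma) the 2 arrays of FVB/NJ had 453 and 479 in the pituitary gland, below the 529 to 748 of the other strains, and 916 and 1033 in the pag, where the other strains had 592 to 987. FVB/NJ was thus called lower in the pituitary gland, by 0.47 on the log2 scale, and higher in the pag, by 0.39. A/J was lower in the hippocampus, the hypothalamus and the pag, by 0.35, 0.40 and 0.39, but not in the pituitary gland, where it had 612 and 632 against 453 to 748. For Kcnip2 (limma adjusted p = 0.00324) FVB/NJ had 314 and 325 in the pituitary gland against 104 to 240.2 in the other strains, and 1193 and 1053 in the hippocampus against 1047 to 1613. The log2 difference was 0.996 in the pituitary gland, and FVB/NJ was not called in any other region.

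For Kcnn2 (limma adjusted p = 0.00346) C57BL/6J had 267 and 270.4 in the hippocampus against 327 to 428 in the other strains, and 148 and 129 in the pituitary gland against 107 to 153. C57BL/6J was lower in the bnst, the hippocampus and the pag, by 0.53, 0.51 and 0.46 on the log2 scale, and FVB/NJ was higher in the bnst, the hypothalamus and the pag, by 0.51, 0.45 and 0.50. Neither strain was called in the pituitary gland. For Kcnab1 (limma adjusted p = 0.00539), the Kv1 beta subunit, A/J averaged 699 in the bnst against 516 in the other strains, and FVB/NJ averaged 161 in the pituitary gland against 102. The silent subunit Kcns2 (limma adjusted p = 0.00491) differed in the pituitary gland, where C3H/HeJ averaged 8.61 against 33.7 in the other strains and DBA/2J averaged 12.5 against 32.9, and all 4 arrays of these 2 strains were below the floor. The sodium-activated channel Kcnt1 (limma adjusted p = 0.0132) was higher in the A/J pituitary gland, at 187 against 130 (log2 difference 0.54), and lower in that of 129S6/SvEvTac, at 105 against 146 (log2 difference -0.45).

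**Figure D5:**
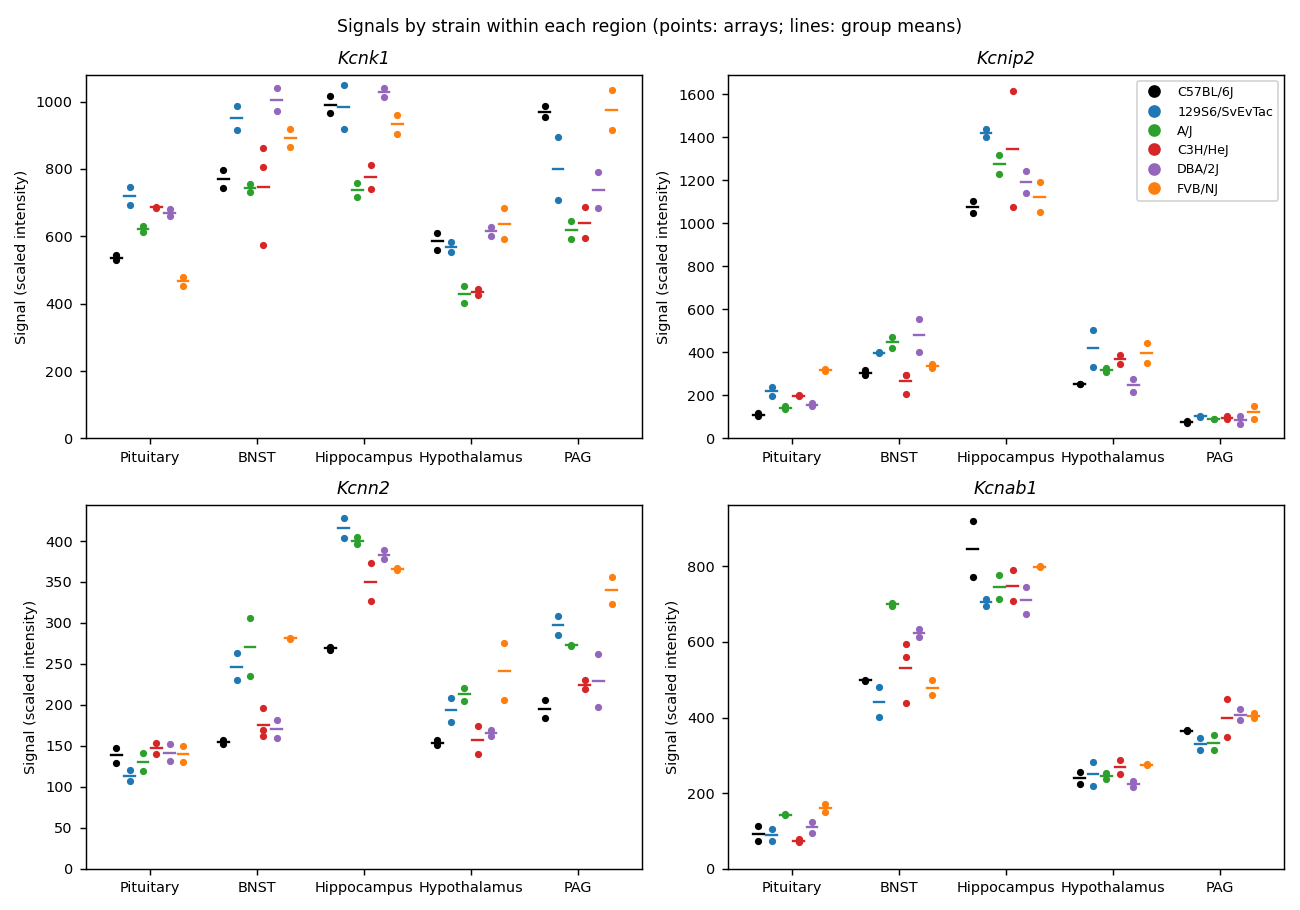
Signals (scaled intensity) of Kcnk1, Kcnip2, Kcnn2 and Kcnab1 on each array by region (horizontal axis) and strain (colour), where points are arrays and lines the means of 2 or 3 arrays. FVB/NJ is lowest for Kcnk1 in the pituitary gland but among the highest in the pag, and C57BL/6J is lowest for Kcnn2 in the hippocampus but not in the pituitary gland.

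Over the 30 group means on the log2 scale, the potassium channel genes most like Kcnj9 were Kcnd2 (r = 0.889), Kcnq3 (r = 0.884) and Kcnc2 (r = 0.883), and those most like Kcnq5 were Kcnab2 (r = 0.937), Kcnq3 (r = 0.926) and Kcnd2 (r = 0.909). All of these genes had their lowest mean in the pituitary gland, and the groups share arrays, so these values are descriptions.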

How the data were processed

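The authors processed the scanned arrays in the TeraGenomics system and deposited 1 intensity for each probe set, background-corrected and globally scaled but not logged. Version and scaling target are not given in the sources used here. Means per array lay between 180.5 and 200.5, and 5.36% of the values were below 0. Detection calls were not used here, so probe sets not scored as Present could enter the tests and the shares of all probe sets. The number of arrays limits the precision. After 64 control probe sets were left out, 45037 remained, 932 of them with several gene names and 9160 with none. Values were used as deposited. limma 3.58.1 (R 4.3.3) was fitted with a mean for each of 30 groups (eBayes with a trend, 31 residual degrees of freedom) to log2 of signals raised to the 20th percentile, 12.8. The 44065 probe sets above the floor on at least 1 array were tested, with Benjamini-Hochberg adjustment within each comparison and calls at an adjusted p under 0.05. Strain- and region-specific genes were classed by linear regression on unlogged signals with an F p under 0.01, after the paper's model but over all probe sets, without its filter on Present calls, so the shares need not match those of the study. The fit was tested on simulated data.

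The genes, the role, partner and marker lists and the tests were chosen with earlier results of these data known. The genes named are those with the 4 largest called differences in each direction per region and the 3 largest per strain (same direction in every strain or region), the 8 with the smallest interaction p, all probe sets of Kcnq5 and Kcnj9, members of the role lists and the 3 most like Kcnj9 and Kcnq5. Kcnh1 (both probe sets), Kcnh5 in FVB/NJ and Kcne2 were chosen after their values were seen. The comparison with the other brain regions alone was added after seeing the data. Figures were drawn with matplotlib.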

Additional observations from a re-analysis of the deposited data

Results flagged for a closer look

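For 16 potassium channel genes the strain differences differed between regions by limma's interaction F test, and these are given with their adjusted p values. The smallest were 0.000339 for Kcnk1, 0.00116 for Kcnj9, 0.00324 for Kcnip2, 0.00346 for Kcnn2, 0.00491 for Kcns2 and 0.00539 for Kcnab1. They were 0.0132 for Kcnt1, 0.0158 for Kcnh2, 0.0206 for Kcnd2, 0.0225 for Kcnh3, 0.0227 for Kcna3 and 0.0306 for Kcnh7. They were 0.0312 for Kcnd3, 0.0346 for Kcnip4, 0.0421 for Kcnq3 and 0.0448 for Kcnh5. Of the further probe sets of Kcnj9 and Kcnq5, probe set b of Kcnj9 had 0.00461 and probe set c of Kcnq5 had 2.51e-10. Where signals lie below the floor, strain differences become 0 or smaller, and the test cannot tell this from a change between regions. This touches Kcnh5 and, in C57BL/6J, probe set c of Kcnq5, both below the floor in the pituitary gland. Kcnh7 was above the floor on only 27 arrays, and the median pituitary signal of Kcnq3 was -1.49. Each group holds 2 or 3 arrays, too few to test for single arrays that stand apart.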

How the results depend on the processing

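Of 101 differences of single genes, 101 kept their direction and call with the replicate number as a block and with 60 arrays, without the C3H/HeJ bnst array least like the other 2 of its group. The mean correlation of same-numbered residuals was -0.04 to 0.02 by region, which does not settle whether the same mice gave several regions. Arrays of different regions were treated as independent. The block gave 46 lower and 21 higher genes in the pituitary gland and 16 interactions, moving no count by over 1.5 times. Calls of single genes were lost for 4 with a floor at the 10th percentile, 7 with arrays scaled to 1 median, 2 with quantile normalization, 3 with linear signals and 6 of 87 with the mean over the probe sets of a gene, all of them between strains, and 3 more of the 87 changed direction. Leaving out 1 array at a time lost 29 calls of 6161, in 11 results, and reversed none. By the mean over probe sets Kcnd2 in 129S6/SvEvTac turned to 0.043 (limma adjusted p = 0.602), Kcnh1 in C57BL/6J to 0.354 (0.00476) and Kcnj9 in A/J to -0.026 (0.838), so that Kcnd2 and Kcnj9 lost their calls too.

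Region counts moved by over 1.5 times with linear signals (lower in the bnst 23, in the pag 24) and against the brain regions alone (higher in the bnst 23, hypothalamus 13 and pag 23, lower in the pag 23). Strain counts are small and moved more. With arrays scaled to 1 median 129S6/SvEvTac had 2 higher and 3 lower, C3H/HeJ 2 and 4, DBA/2J 9 and 0, C57BL/6J 2 higher and FVB/NJ 5 higher, and 10 genes had an interaction. With quantile normalization A/J had 8 higher and DBA/2J 0 lower. With linear signals 8 were higher in 129S6/SvEvTac, 10 in A/J, 0 in C3H/HeJ and 2 in DBA/2J. With the mean over probe sets 0 were higher in C3H/HeJ, 13 in C57BL/6J and 5 in FVB/NJ, 4 were lower in DBA/2J and 1 was strain-specific. With a floor at the 10th percentile 4 were lower in DBA/2J, with one at the 30th 0 were higher in C3H/HeJ, and among probe sets with a group mean of 50 or more, fewer than all, 8 were higher in A/J. Where limma called 0, 2 to 5 genes had an unadjusted p under 0.05. The causes were not tested.

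Leaving out 1 array at a time, 129S6/SvEvTac had 2 to 6 higher and 3 to 8 lower, the lowest without its hypothalamus replicate 2, and A/J had 4 to 9 higher, 9 without that same array. C3H/HeJ had 0 to 2 higher, 0 without its hippocampus replicate 1 or pituitary replicate 2, and 2 without its pag replicate 1, A/J bnst replicate 1 or 129S6/SvEvTac hypothalamus replicate 2. It had 3 to 7 lower, 3 without its pag replicate 2 and 4 without its hippocampus replicate 1, hypothalamus replicate 2 or pituitary replicate 1. C57BL/6J had 2 to 8 higher, 2 without its hippocampus replicate 2, 3 without its bnst or pituitary replicate 1 and 8 without C3H/HeJ hippocampus replicate 1. DBA/2J had 1 to 4 lower, 1 without any of 7 of its own arrays and 4 without 129S6/SvEvTac hypothalamus replicate 1. FVB/NJ had 5 to 10 higher, 5 without its bnst or pag replicate 1, and 1 to 3 genes were strain-specific, 1 without any of 10 arrays.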
